A study of Mus musculus with 16 samples.

Results

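The regions described here are 1170 narrow H3K4me3 peaks that only the list of mice with the wild-type PRDM9 transgene (B6-TgWT) held, and that lay far from any H3K4me3 peak common to the 3 mouse lines. They were chosen from the 47654 peaks of the B6-TgWT list by 4 criteria. A peak had to lie on chromosomes 1 to 19, be under 2000 bp wide, overlap no peak of the B6 list or of the B6-TgYF list by 1 bp, and be at least 100 kb from the nearest shared peak. A shared peak is a B6-TgWT peak that overlaps both a B6 and a B6-TgYF peak, and 36255 of them served as anchors. Of 38671 narrow autosomal B6-TgWT peaks, 8085 (20.9%) were gained, meaning that they overlapped nothing in either other list, and 1170 of those met the distance criterion. These 1170 are called distant gained sites below. Since the lists themselves chose the sites, their presence in B6-TgWT, their absence elsewhere and their distance from shared peaks are descriptions and no findings.

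H3K4me3 ChIP-seq, which pulls down chromatin with lysine 4 of histone H3 trimethylated, profiled whole testes of mice aged 13 days post-partum, when spermatocytes are entering meiosis. The groups were B6-TgWT, given in the labels as C57BL/6J-Tg(RP23-159N6*)43Bdm, B6-TgYF, given as C57BL/6JRj-Tg(RP23-159N6*)23Bdm, and B6 without a transgene, given as C57BL/6JOlaHsd, with 2 H3K4me3 libraries and 1 input each. By general knowledge of this study, the transgenes are modified bacterial artificial chromosomes with the Prdm9 gene, the wild-type one encoding a PRDM9 of castaneus DNA-binding specificity and the YF one a form with a substitution in the catalytic domain. All these groups keep the endogenous B6 Prdm9 gene. Each transgene is represented by 1 transgenic line on its own C57BL/6 substrain, so the transgene, its insertion, the substrain and the libraries cannot be told apart in what follows. The deposited name of the B6 list holds "d12", whereas its labels say 13 days.

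PRDM9 is a meiotic histone methyltransferase. An array of zinc fingers binds a DNA motif that differs between alleles, and the PR/SET domain then trimethylates lysine 4 of histone H3 on the nucleosomes on both sides of the bound site. In mice and humans these sites become the places where meiotic DNA double-strand breaks form. H3K4me3 is also the mark of active promoters, which carry it without PRDM9. Peaks here were not assigned to genes, promoters or motifs, because no sequence or annotation of mm9, the build of the lists, was used.

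Each line had 1 peak list for both libraries, so no value below has a replicate error and no difference was tested. Intervals are 95% intervals that cover counting error over sites only, and sites are not replicates. Read depth is unknown, because the lists hold no read counts, and absence from a list means that no peak was called there. On chromosomes 1 to 19 the lists held 46631 peaks for B6-TgWT, 41558 for B6-TgYF and 50013 for B6.

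The first question was how strong the distant gained sites were. Fold enrichment is the authors' ratio of ChIP signal to background at a peak, and all values below come from the B6-TgWT list. Among the 1170 sites it ran from 2.79 to 14.39, with a median of 4.84 (interval 4.72 to 4.93) and quartiles of 4.06 and 6.1. The median of all autosomal B6-TgWT peaks was 6.81. By fold enrichment, 185 of the 1170 sites (15.8%, interval 13.8 to 18) lay in the stronger 50% of the whole list and 1 lay in its top 25%. The weakest 25% of the list held 519 of them (44.4%, interval 41.5 to 47.2).

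Gained peaks nearer to shared peaks held a larger share of strong sites at a like median. The 6915 gained narrow peaks under 100 kb from a shared peak had a median fold enrichment of 5 (interval 4.93 to 5.04), and 21.8% of them (interval 20.8 to 22.8) lay in the stronger 50%. Shared narrow peaks with no other shared peak within 100 kb, of which there were 1517, had a median of 5.4 (interval 5.19 to 5.53). Of these isolated shared peaks, 189 (12.5%) reached the top 25% of the list. Of the distant gained sites 1 did so (0.0855%), and of the nearer gained peaks 0.202%. Peaks of the top 25% were thus rare among gained peaks at either distance. This is a description, since the sets were cut by whether the other lists held a peak there. The ranking also covers peaks of 2000 bp or more, which none of these sets can hold.

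**Figure D1:**
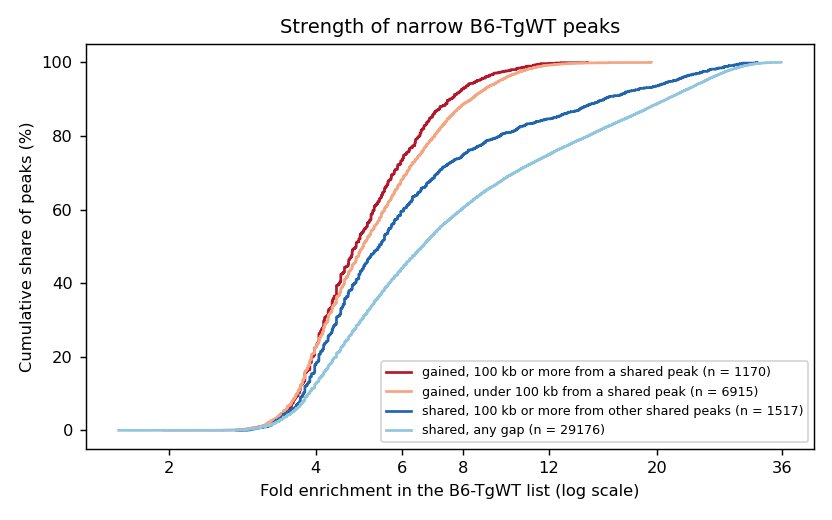
Cumulative share (%) of narrow B6-TgWT peaks against the authors' fold enrichment (log scale), for 1170 distant gained sites, 6915 gained peaks under 100 kb from a shared peak, 1517 isolated shared peaks and 29176 shared narrow peaks in all. The distant gained sites end at a fold enrichment of 14.39 and the nearer gained peaks at 19.4, whereas the isolated shared peaks go on to 32.

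The strongest distant gained site was chr16:7324247-7325873 in mm9. It was 1627 bp wide, with a fold enrichment of 14.39 and a −log10 p of 135.33, and lay 274 kb from the nearest shared peak. The nearest B6 peak was 27.1 kb away and the nearest B6-TgYF peak 224 kb away. A second site followed only 0.189 kb further along, chr16:7326063-7326979, with a fold enrichment of 7.36. Next came the 1920 bp of chr2:140331155-140333074, enriched 12.71-fold and with the nearest shared peak 108 kb away. The site chr10:30920634-30921495 was only 862 bp wide but enriched 12.36-fold, and its summit lay at 83.9% of its width from the left edge. The fourth was chr12:26051733-26053412, enriched 12.02-fold.

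The other 8 of the 12 strongest sites had fold enrichments of 11.58 down to 11.12. Their positions were chr3:155487680-155489005, chr13:109709955-109711916, chr16:27129961-27130880, chr11:85487889-85489193, chr13:36543246-36545198, chr14:19409586-19411226, chr17:94380023-94382007 and chr7:70227213-70229193, in order of strength. The 12 strongest sites were spread over 10 chromosomes, were 862 to 1985 bp wide and lay 108 to 767 kb from a shared peak. A B6 peak stood within 100 kb of 8 of them, and of 47.9% of all 1170 sites, so that distance from shared peaks did not mean distance from every B6 peak. Another gained narrow peak stood within 10 kb of 7 of the 12, and of 17% of all 1170 sites.

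Median strength varied little with distance among the members. The median gap to the nearest shared peak was 180 kb, with quartiles of 127 and 287 kb and a maximum of 1645 kb. Median fold enrichment was 4.97 (interval 4.75 to 5.23) in the 453 sites at 100 to 150 kb, 4.67 in the 207 at 150 to 200 kb, 4.96 in the 234 at 200 to 300 kb, 4.67 in the 173 at 300 to 500 kb and 4.71 (interval 4.41 to 5.03) in the 103 at 500 kb or more. Across the 1170 sites Spearman's rho between fold enrichment and gap was -0.02, given as a description since all sites come from the same pooled libraries. The share of sites in the stronger 50% of the list was 18.5% (interval 15.2 to 22.4) at 100 to 150 kb, 14% at 150 to 200 kb, 16.7% at 200 to 300 kb, 11% (interval 7.14 to 16.5) at 300 to 500 kb and 13.6% (interval 8.27 to 21.5) at 500 kb or more. It was thus highest in the nearest range, with overlapping intervals. Median widths in the same gap ranges stayed between 1060 and 1128 bp. Even beyond 500 kb the highest fold enrichment was 11.12.

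The site farthest from a shared peak was chr1:104763422-104764481, enriched 5.88-fold. Its nearest B6 and B6-TgYF peaks were each 1645 kb away. A close pair lay further along, chr1:104945970-104946414 and chr1:104946828-104947348, with fold enrichments of 7 and 4.58 and gaps to a shared peak of 1463 and 1462 kb. The other 2 of the 5 farthest were chr3:111932489-111932966, enriched 4.06-fold, and chr3:43964978-43965711, enriched 8.13-fold. The first of these had a B6 peak 4.91 kb away although the nearest shared peak was 1338 kb away.

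At the distance limit, the few members and peaks left out that were named had like values. At the width limit those left out had a higher median but, close to the limit, a lower maximum. The 3 sites just inside the distance limit, with gaps of 100055, 100127 and 100234 bp, had fold enrichments of 4.52, 5.4 and 3.78. The 3 gained peaks just outside it, with gaps of 99927, 99902 and 99666 bp, had 4.74, 5.38 and 4.9. The 37 sites from 1900 bp up to the limit had a median fold enrichment of 6.56 and a maximum of 12.7. The 28 equally distant gained peaks of 2000 to under 2100 bp, which the width limit left out, had 7.4 and 9.25. All 107 peaks that the width limit left out had a median of 8.01.

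The second question was whether gained peaks avoided or favoured the stretches far from shared peaks. Of the 8085 gained narrow peaks, 14.5% (interval 13.7 to 15.3) lay at least 100 kb from a shared peak. For narrow peaks of the B6 list alone, measured from the same anchors, the share was 13.2% of 8513 (interval 12.5 to 13.9), and for those of the B6-TgYF list alone it was 10.7% of 447 (interval 8.2 to 14). Narrow peaks of B6 and B6-TgYF without B6-TgWT gave 10.4% of 5010 (interval 9.6 to 11.3). The share for gained peaks was thus near that of peaks found in the B6 list alone. By strength, the distant share was 14.5% below a fold enrichment of 4, 16.3% at 4 to 5, 15.2% at 5 to 6, 13.9% at 6 to 8, 9.75% at 8 to 10 and 9.56% (interval 6.61 to 13.6) at 10 or more.

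Sequence at least 100 kb from a shared peak made up 703 Mb, or 29.9% of the 2355 Mb between the first and the last shared peak of each chromosome. There the gained narrow peaks had a density of 1.66 per Mb (interval 1.57 to 1.76), against 4.18 per Mb (interval 4.09 to 4.28) nearer than 100 kb. The density was 4.75 per Mb within 5 kb of a shared peak, 4.63 at 5 to 20 kb, 4.13 at 20 to 50 kb and 3.07 at 50 to 100 kb. Beyond the limit it went on down, to 2.34 at 100 to 200 kb, 1.57 at 200 to 400 kb, 1 at 400 to 800 kb and 0.38 (interval 0.241 to 0.571) at 800 kb or more. Peaks of the B6 list alone thinned out as well, with 7.46 per Mb within 5 kb, 2.11 at 100 to 200 kb and 0.562 (interval 0.389 to 0.785) at 800 kb or more.

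The number of gained peaks for each B6-alone peak varied with the gap. It was 0.636 within 5 kb, 0.982 at 5 to 20 kb, 1.12 at 20 to 50 kb and 1.17 at 50 to 100 kb. Farther out it was 1.11 at 100 to 200 kb, 1.06 at 200 to 400 kb, 0.867 at 400 to 800 kb and 0.676 at 800 kb or more. The last 2 ratios rest on 143 gained peaks beside 165 B6-alone peaks, and on 23 beside 34.

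**Figure D2:**
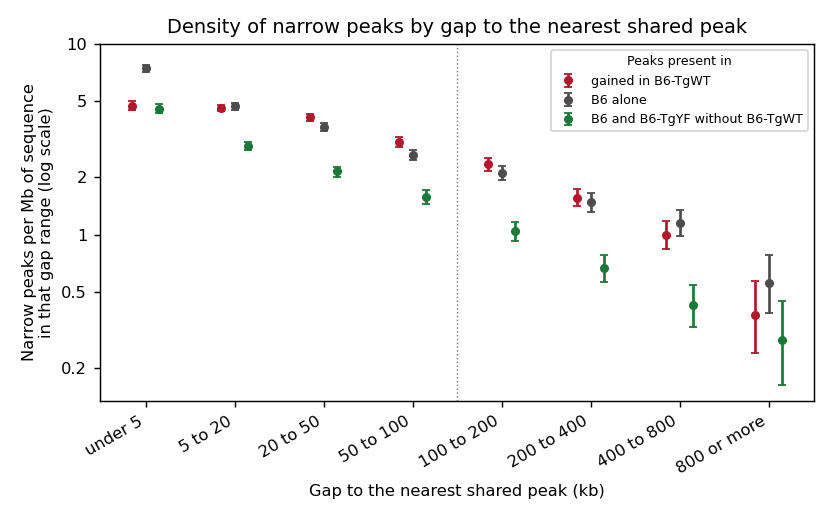
Narrow peaks per Mb of sequence (log scale) against the gap to the nearest shared peak in kb, for peaks gained in B6-TgWT, peaks of B6 alone and peaks of B6 and B6-TgYF without B6-TgWT, with 95% exact Poisson intervals. All 3 densities go down with the gap, and the gained peaks fall to 0.38 per Mb at 800 kb or more; the dotted line marks the 100 kb limit.

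Between neighbouring shared peaks there were 2229 stretches of at least 200 kb, the shortest that can hold a distant gained site. Of these, 718 (32.2%, interval 30.3 to 34.2) held 1 or more, 438 of them a single site and 280 several. The share with a site was 12.5% of 889 stretches of 0.2 to 0.3 Mb, 33.5% of 677 of 0.3 to 0.5 Mb, 51.2% of 424 of 0.5 to 1 Mb, 69.2% of 195 of 1 to 2 Mb and 63.6% (interval 48.9 to 76.2) of 44 of 2 Mb or more. Of the 2229 stretches, 553 held no B6 peak of any kind. A distant gained site lay in 128 of those 553, a lower share than in all stretches. However, the 553 were more often short, with 271 of them at 0.2 to 0.3 Mb, against 889 of all 2229. Of those 271, 33 held a site, beside 111 of all 889 in that range, a like share. The shares were also alike at 0.5 to 1 Mb, with 37 of 73 beside 217 of 424. They were lower without a B6 peak at 0.3 to 0.5 Mb (46 of 182 beside 227 of 677) and at 1 to 2 Mb (12 of 21 beside 135 of 195). The 128 stretches held 190 of the 1168 sites that lay between shared peaks. The 6 stretches of 2 Mb or more without a B6 peak held 0 of the sites.

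The most crowded stretches were on chromosomes 1 and 15. A stretch of 2.14 Mb between chr1:123804820 and chr1:125940820 held 8 distant gained sites with fold enrichments of 3.64 to 9.25, beside 2 B6 peaks and 0 B6-TgYF peaks. A stretch of 4.63 Mb between chr1:101780759 and chr1:106409263 also held 8, with fold enrichments of 3.78 to 7, and the farthest site named above was among them. The 0.442 Mb between chr15:73875384 and chr15:74317401 held 6. The longest stretch of all, 7.37 Mb between chr7:39164553 and chr7:46538144, held 0 distant gained sites and only 1 B6-TgWT peak, with 1 B6-TgYF peak and 0 B6 peaks.

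All 19 autosomes had distant gained sites, from 23 on chromosome 19 to 97 on chromosome 1. Relative to the sequence at least 100 kb from a shared peak, the density was lowest on chromosome 7, with 1.05 per Mb (interval 0.793 to 1.36), and highest on chromosome 11, with 2.8 per Mb (interval 2.11 to 3.64). The intervals of 15 of the 19 chromosomes held the overall 1.66. Chromosome 7 was also lowest for peaks of the B6 list alone, with 0.992 per Mb, but nearly tied with chromosomes 5 (0.995) and 17 (1.03). Those 2 chromosomes had 1.33 and 1.75 distant gained sites per Mb. Chromosome 11 had 1.78 peaks of the B6 list alone per Mb (interval 1.24 to 2.48). Chromosome 7 held stretches of 7.37 and 4.34 Mb, among the longest of all, with 0 distant gained sites and 1 B6-TgWT peak each. Median fold enrichment of the sites differed little among chromosomes, from 4.4 to 5.23, and the strongest site of each chromosome had a fold enrichment between 7.03 and 14.39. Mouse chromosomes have the centromere at one end, where coordinates begin. With each chromosome cut into 5 equal parts from that end, the density was 1.44 per Mb (interval 1.27 to 1.63), 1.67, 1.64, 1.84 and 1.86 (interval 1.58 to 2.17). The first and last intervals overlapped. The 5 parts held 178, 150, 156, 133 and 87.1 Mb of such sequence. They held 336, 328, 301, 309 and 243 isolated shared peaks. Whether the rise was particular to the distant gained sites was not tested.

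**Figure D3:**
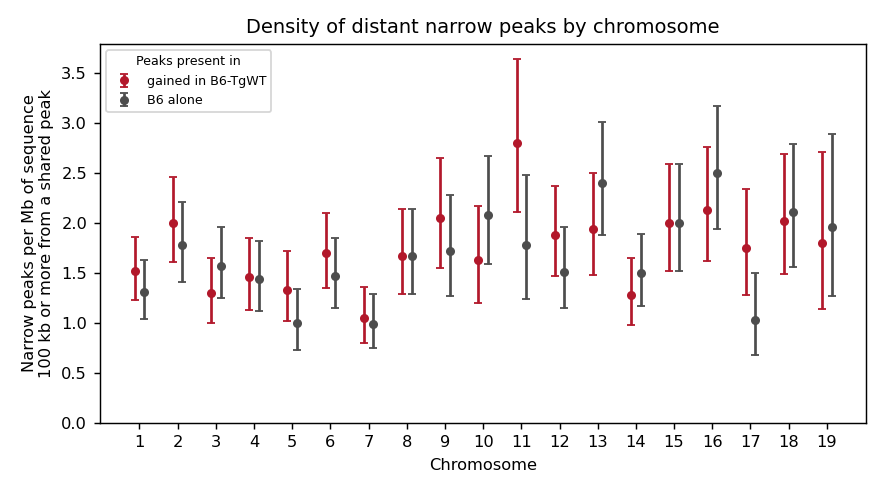
Narrow peaks per Mb of sequence at least 100 kb from a shared peak on each autosome, for peaks gained in B6-TgWT and peaks of B6 alone, with 95% exact Poisson intervals. The gained peaks run from 1.05 per Mb on chromosome 7 to 2.8 per Mb on chromosome 11.

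The third question was whether the distant gained sites had the same shape as other narrow peaks. Their median width was 1112 bp (interval 1077 to 1140), against 1134 bp for the nearer gained peaks and 1013 bp (interval 981 to 1045) for isolated shared peaks. Width went up with strength in every set, with Spearman's rho of 0.45 across the distant gained sites and 0.57 across isolated shared peaks, so widths were also compared at like fold enrichment. At a fold enrichment of 5 to 6 the median width was 1223 bp in 226 distant gained sites (interval 1121 to 1265), against 948 bp in 237 isolated shared peaks (interval 896 to 1014). At 6 to 8 it was 1439 bp (interval 1383 to 1492), against 1096 bp (interval 1037 to 1226), and at 8 to 10 it was 1574 bp (interval 1433 to 1691), against 1306 bp (interval 1138 to 1411). Below 5 the distant gained sites were wider as well, with 968 against 795 bp at 4 to 5 and 922 against 769 bp under 4.

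At a fold enrichment of 10 or more the width medians came together, with 1634 bp in 26 distant gained sites (interval 1326 to 1811) and 1568 bp in 288 isolated shared peaks (interval 1515 to 1613). The limit of 2000 bp cuts both sets there. With no width limit, the medians at 10 or more were 1985 and 1989 bp, and at 6 to 8 they were 1528 and 1192 bp. The nearer gained peaks had medians like those of the distant ones, with 1176 bp at 5 to 6, 1403 bp at 6 to 8 and 1589 bp at 8 to 10. The greater width at like fold enrichment thus held for gained peaks at either distance.

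**Figure D4:**
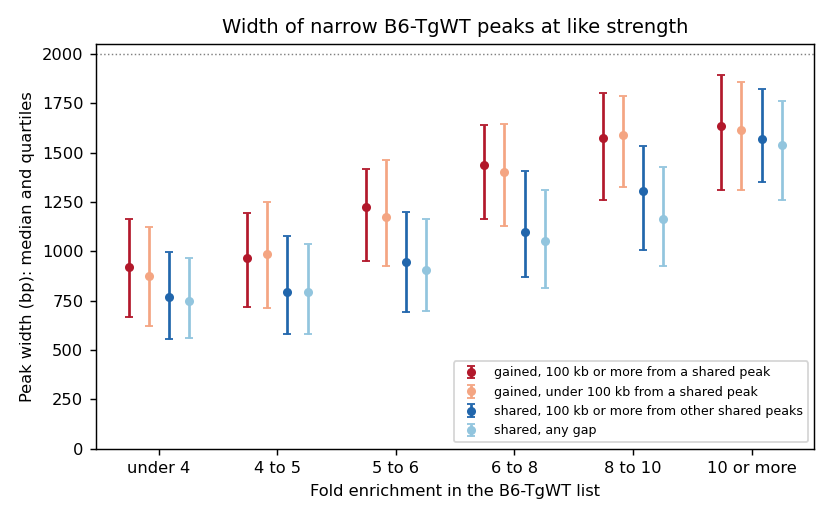
Width in bp of narrow B6-TgWT peaks by fold enrichment range, as medians with quartiles, for distant and nearer gained peaks, isolated shared peaks and all shared narrow peaks. Gained peaks are wider than shared ones in the ranges below 10, for example 1439 against 1096 bp at 6 to 8; the dotted line is the limit of 2000 bp.

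The summit, the point of highest signal that the authors' caller gives for each peak, was less central in the distant gained sites. It lay in the middle part of the peak, between 40% and 60% of the width, in 33.8% of the 1170 sites (interval 31.2 to 36.6). Among isolated shared peaks that share was 47.2% (interval 44.7 to 49.7) and among all shared narrow peaks 48.2%. By their definition, isolated shared peaks never lie within 1 kb of one another, whereas 127 of the 1170 sites (10.9%) had another member that near. The set of all shared narrow peaks has no such restriction. Positions between 30% and 40% held 18.8% of the site summits and those between 60% and 70% held 18.4%, beside 16.3% and 17.5% in the parts just left and right of the centre. These 4 shares lay close together, so the distribution was flat from 30% to 70% of the width. The 6915 nearer gained peaks were intermediate, with 38.4% in the middle part (interval 37.2 to 39.5). Left and right were even, with 49.5% of the site summits left of the centre.

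By the share in the middle part, the off-centre summits were not confined to weak or wide sites. The share in the middle part was 30.9% (interval 25.7 to 36.7) at a fold enrichment under 4, against 44.1% (interval 38.3 to 50.1) in isolated shared peaks. At 5 to 6 it was 31.9% (interval 26.1 to 38.2), against 45.6% (interval 39.4 to 51.9), at 8 to 10 it was 28.8% (interval 18.8 to 41.4), against 53.1% (interval 43.2 to 62.8), and at 10 or more 38.5% (interval 22.4 to 57.5), against 60.1% (interval 54.3 to 65.6), where the intervals overlapped. At 4 to 5 the shares were 34.7% and 39.7%, with overlapping intervals, and at 6 to 8 they were 38.6% and 46.7%, also overlapping. The nearer gained peaks were also below isolated shared peaks in every range, from 35.4% at 10 or more to 40.3% at 8 to 10. They were above the distant gained sites except at 10 or more. Summits less central than in isolated shared peaks thus held for gained peaks at either distance. By width, at 800 to under 1200 bp, the middle share of the distant gained sites was 29.2% (interval 25 to 33.9), against 44.1% (interval 39.6 to 48.7) in isolated shared peaks. It was 33.9% against 46.4% at 1200 to under 1600 bp and 36.8% against 55.5% at 1600 bp or more, without overlap of intervals. Under 800 bp it was 38.6% against 47%, with overlapping intervals. The share with the summit in the outer 30% of either side contrasted less. At 800 to under 1200 bp it was 34% (interval 29.5 to 38.8), against 22.2% (interval 18.6 to 26.2) of isolated shared peaks of that width. In the other 3 width ranges this outer share was also higher in the distant gained sites, but the intervals overlapped. It was 27.9% against 23% under 800 bp, 28.5% against 19.9% at 1200 to under 1600 bp and 19.3% against 12.4% at 1600 bp or more. By fold enrichment, the intervals of the outer share overlapped in every range, with 29.8% against 27.6% under 4 and 32.3% against 23.2% at 5 to 6.

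**Figure D5:**
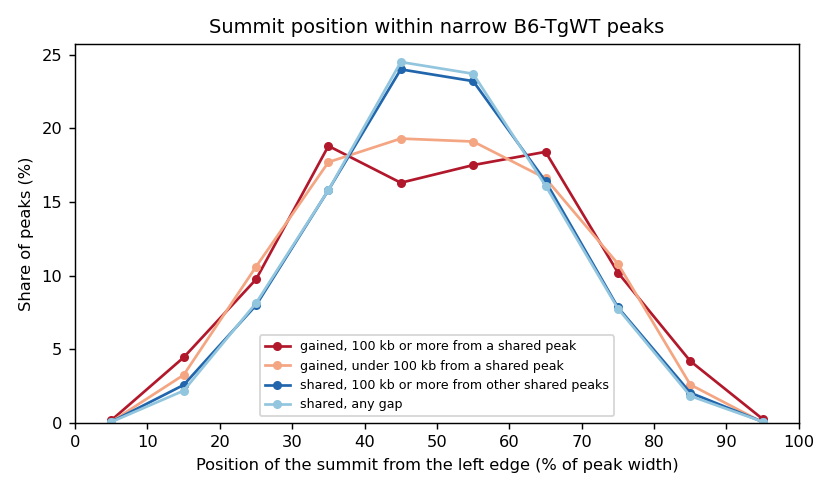
Share (%) of narrow B6-TgWT peaks by the position of the summit, as % of the peak width from the left edge in steps of 10, for distant and nearer gained peaks, isolated shared peaks and all shared narrow peaks. The distant gained sites have 16.3% and 17.5% in the steps beside the centre and 18.8% and 18.4% in the next ones out, while the shared peaks are highest at the centre.

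The fourth question was how the sites lay relative to one another. The median gap from a distant gained site to the next gained narrow peak of any kind was 116 kb (interval 100 to 135), and to the next member of the set 223 kb. Some lay very close together. Of the 1151 gaps between neighbouring members on a chromosome, 64 were under 1 kb and only 35 were 1 to 10 kb, although the second range is the longer one. Joined at under 1 kb, 127 sites (10.9%, interval 9.2 to 12.8) fell into 63 groups, 62 of them pairs and 1 of 3 sites, and the set then counted 1106 separate places.

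The close groups spanned a median of 1680 bp, with quartiles of 1448 and 1974 bp, so 49 of the 63 fitted within the width of 1 narrow peak. Summits within a pair were a median of 743 bp apart, with quartiles of 624 and 889 bp. The sites in groups were narrower than the rest, with a median width of 717 bp, against 1153 bp for the other sites, and their median fold enrichment was 5.21, against 4.75. The stronger member of a pair exceeded the weaker by a median of 1.44-fold in enrichment and by at most 3.59-fold. The group of 3 was chr11:85486606-85487260, chr11:85487350-85487609 and chr11:85487889-85489193, with fold enrichments of 4.06, 8.13 and 11.33.

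Close groups were more common among strong sites, with 23.5% of the 85 sites at a fold enrichment of 8 or more (interval 15.8 to 33.6), 12.1% at 5 to 8 and 8.24% (interval 6.34 to 10.6) under 5. Counting any gained narrow peak within 1 kb, the share was 10.9% for distant gained sites and 9.99% (interval 9.31 to 10.7) for the nearer gained peaks. Peaks of the B6 list alone at the same distance from shared peaks were seldom grouped in this way, with 24 of 1122 (2.14%, interval 1.44 to 3.16). In that list the fold enrichments are on their own scale, and 1030 of the 1122 were under 5. Shared narrow peaks whose close group lay at least 100 kb from other shared peaks were grouped in 11.3% of 1711 cases (interval 9.92 to 12.9), near the share of the distant gained sites, with a longer median span of 2065 bp. Among these, too, the share was higher in strong peaks, with 15.8% at a fold enrichment of 8 or more (interval 12.7 to 19.4), 10.2% at 5 to 8 and 9.38% under 5. Grouping at this range was therefore not particular to the distant gained sites.

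The other lists had some peaks around the distant gained sites that were no anchors. A B6 or B6-TgYF peak lay within 100 kb of 575 of the 1170 sites, a B6 peak near 561 of them and a B6-TgYF peak near 253. For the other 595 (50.9%, interval 48 to 53.7) neither list had a peak within 100 kb. These 595 sites had a median fold enrichment of 4.89 and a median width of 1113 bp, against 4.75 and 1109 bp for the sites with such a neighbour. A B6 or B6-TgYF peak stood within 1 kb of only 5 sites, the nearest at 387 bp.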

How the data were processed

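H3K4me3 ChIP-seq of whole testis had 2 libraries and 1 input for each of B6-TgWT, B6-TgYF and B6. Per the submitters' processing notes, reads went through CASAVA, Bowtie2, BWA and MACS2 on build mm9, without versions. Neither the peak cutoff nor the way the libraries of a line were joined is stated in these sources. The authors deposited 1 peak list per line without a header, and its 10 columns were taken to be those of the narrowPeak format. Fold enrichment, as deposited, is a linear ratio over background. The deposited −log10 p and −log10 q are the authors' values, and the deposited score is 10 times the −log10 p, truncated. The column of summit positions was read as bases from the peak start. Coordinates are mm9, counted from 1. Read depth is unknown.

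Members were found by 1 bp overlap and by the number of bases between peak edges. The members and comparisons were chosen with earlier results of these data known. Close groups, summit ranges and the separate account of chromosome X were added after values were seen. Named sites were the 12 strongest, the 5 farthest, the 3 on each side of the distance limit and the 3 stretches with most sites. Shares have Wilson intervals, densities exact Poisson intervals and medians order-statistic intervals, all at 95%. No density by gap is given for shared peaks, as they set the distance. Assembly gaps and sequence where reads cannot be placed were not taken out of the lengths behind the densities. The overlap, gap and length steps were tested on simulated data. The DMC1 libraries and gene tables of GRCm38 were not used here. Computation used Python 3.11.15 with scipy 1.17.1, pandas 2.3.3 and numpy 2.4.6, and matplotlib 3.10.9 drew the plots.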

Additional observations from a re-analysis of the deposited data

How the results depend on the processing

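Of 68 alternative values over 7 results and 11 settings, 39 stayed within the interval, or within 1.5 times the count, and 29 did not. Those 29 came from settings that change which sites are counted. Such a setting did not move every value, as the median fold enrichment was 4.83 with a gap limit of 200 kb. No paired analysis was possible because the libraries of a line share 1 deposited list, so leaving out a replicate was not run either. Counting summits within 500 bp as overlap, or extending peaks by 500 bp, moved none of the 7. Ranking by −log10 q was computed only for the share in the stronger 50%, which it did not move. With a width limit of 1500 bp the median fold enrichment was 4.5, the share in the stronger 50% was 9.97%, the median width 999 bp, the density 1.33 per Mb and the median gap to the next gained peak 147 kb. With no width limit they were 5.01, 20.8%, 1161 bp and 1.81 per Mb. A gap limit of 50 kb gave 2208 sites, 27.3% of gained peaks, 2.12 per Mb and 89.9 kb, and one of 200 kb gave 510 sites, 6.31%, 1.21 per Mb and 179 kb. Measured from any B6 or B6-TgYF peak there were 595 sites, 7.36% of gained peaks, with 1.36 per Mb and 151 kb. In the stronger 50% of the list there were 185 sites, 10.9%, with a median fold enrichment of 7.9, 1498 bp, 0.263 per Mb and 731 kb. Adding X gave 1.5 per Mb. Joining sites under 1 kb apart, chosen after seeing the data, gave a median width of 1174 bp.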

Other observations

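Chromosome X, which the definition leaves out, had few distant gained peaks. It held 115 gained narrow peaks, of which 26 (22.6%, interval 15.9 to 31.1) lay at least 100 kb from a shared peak. Their median fold enrichment was 4.84 and their median width 1370 bp. Of the sequence between shared peaks, 58.1% on X was that far from any, against 29.9% on chromosomes 1 to 19. The density there was 0.28 per Mb on X (interval 0.183 to 0.41), below the lowest autosome at 1.05 per Mb. Narrow peaks of the B6 list alone had 0.613 per Mb on X (interval 0.464 to 0.794), against 1.59 per Mb on chromosomes 1 to 19. The density on X rests on 26 peaks in 93 Mb.

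Beside the narrow sites, 107 gained peaks of 2000 bp or more lay equally far from shared peaks. Their median fold enrichment was 8.01 and their widths reached 3989 bp. None of the 1170 narrow sites had such a wide gained peak within 1 kb (0 sites), and 1 had a peak within 1 kb that overlapped B6 or B6-TgYF but not both.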
